A study of Mus musculus with 4 samples.

Results

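Small nucleolar RNA (snoRNA) genes were examined in the hippocampus of mice that had gone through repeated social defeat (R-SDS, 2 arrays) and of unstressed mice (Control, 2 arrays). The members were the genes whose symbol begins with Snora or Snord and that had a row with exactly 1 gene symbol in the array annotation, each represented by its brightest row. They numbered 51 of 19938 genes, 20 H/ACA (Snora) and 31 C/D (Snord), out of 133 Snora and Snord genes in the RefSeq gene table. All mice were male C57BL/6JJmsSlc, aged 11 to 12 weeks, and both groups lived in divided cages. R-SDS mice met an aggressive ICR male for 10 min a day on 10 days and spent the rest of each day behind a divider from it, whereas Control mice were paired with each other. The study describes its R-SDS array mice as susceptible, that is, avoiding an ICR mouse, but the labels do not give this class. Total RNA was hybridised to Affymetrix Mouse Gene 1.0 ST arrays, and values are log2 RMA levels.

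snoRNAs are short RNAs of the nucleolus that guide chemical changes of other RNAs by base pairing. C/D snoRNAs guide 2′-O-methylation through the methyltransferase fibrillarin (Fbl), and H/ACA snoRNAs guide pseudouridylation through the pseudouridine synthase dyskerin (Dkc1), mostly on ribosomal RNA. A few, such as U8, U14, U17 and U22, serve the cleavage of the ribosomal RNA precursor. Most vertebrate snoRNAs are cut out of introns of host genes, many of which encode ribosomal proteins or non-coding transcripts named Snhg (small nucleolar RNA host gene). In brain, imprinted C/D clusters such as Snord116 are strongly expressed. A row of the array cannot separate a mature snoRNA from the host intron that holds it. The recovery of such short RNAs in the RNA purification of each sample was not tested. Levels and differences are therefore those of array rows and not amounts of mature snoRNA.

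The starts of 3 host transcripts are shown because they carry the H/ACA genes at both ends of the measured differences and the C/D gene U22, and because their exons encode no protein, so that the snoRNAs are their best-known products. Snhg3 holds Snora73a and Snora73b (U17), Snhg12 holds Snora16a and Snora44, and Snhg1 holds Snord22 (U22). Lower case marks the 60 bases before the RefSeq start and capitals the first 50 transcribed bases, on the strand of the gene (RefSeq, GRCm38.p6; Snhg3 at chr4:132353637-132353746, minus; Snhg12 at chr4:132308618-132308727, plus; Snhg1 at chr19:8723427-8723536, plus).
Snhg3: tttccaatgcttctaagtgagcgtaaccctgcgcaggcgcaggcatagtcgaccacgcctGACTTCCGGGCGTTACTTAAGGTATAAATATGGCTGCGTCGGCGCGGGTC
Snhg12: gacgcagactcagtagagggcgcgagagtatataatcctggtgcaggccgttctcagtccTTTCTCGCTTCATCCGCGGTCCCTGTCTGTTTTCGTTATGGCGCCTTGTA
Snhg1: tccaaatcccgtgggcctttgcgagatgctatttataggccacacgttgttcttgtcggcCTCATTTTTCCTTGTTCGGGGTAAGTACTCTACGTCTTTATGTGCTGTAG

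Host genes of snoRNAs are known for transcripts that begin with a run of pyrimidines. The letters CTTTC or CTTTT, which share their first letters, were searched from 5 bases before to 15 bases after the start on both strands. Of the 43 genes that span a member, 31 had a promoter entry, and 9 of these held either motif on the gene's strand and 1 on the other strand. Over all 27025 genes with an entry the shares were 4.92% and 4.68%. Snhg12 held the motif across its start, and Snhg3 and Snhg1 did not hold it in this window.

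The arrays shared replicate numbers across groups, and the labels do not say what a number marks. The interquartile range of all rows came to 3.37 for R-SDS 1 and 3.11 for R-SDS 2, against 3.34 in Control 1 and 3.06 in Control 2, so the main differences are also given within number 1 and within number 2. The 6 measured neuron markers lay at 8.41 or above, among the brighter transcripts, and had a median difference of 0.04. Of 5 astrocyte markers 5 had a higher mean in R-SDS (median 0.15), of 5 endothelial markers 4 (0.16) and of 5 microglia markers 3 (0.00011), while all 4 oligodendrocyte markers had a lower one (-0.09, with -0.16 within number 1 and -0.04 within number 2). The 9 measured choroid plexus markers had a median level of 8.63 in R-SDS 1 but 5.56 in R-SDS 2, against 5.56 in Control 1 and 5.42 in Control 2. The R-SDS mean was the higher one for all 9, but within number 2 R-SDS was lower for 5 of them (median -0.08). Ttr and Kcnj13 were also high in Control 1 (11.38 and 7.34), above R-SDS 2 (8.79 and 5.56) and Control 2 (7.43 and 5.83). All 4 measured blood cell markers were higher in R-SDS 1 than in Control 1, with a median difference of 0.94 within number 1 and -0.10 within number 2. Control 1 was the lowest array for all 4. Ptprc was highest in R-SDS 2 (5.72, against 5.51 in R-SDS 1), and its difference within number 1 was 0.07. R-SDS 1 thus stood apart in choroid plexus genes and in the blood cell genes Alas2, S100a8 and S100a9. The main snoRNA results are also given without R-SDS 1.

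Most snoRNA genes had a slightly lower mean in R-SDS mice, and no single gene passed the test over all transcripts. Of the 51 genes, 39 had a lower and 12 a higher mean in R-SDS, where 47.1% of all 21789 tested transcripts were lower. The median log2 difference was -0.06, with a range of -0.49 (Snord118) to 0.19 (Snord52), against 0.01 over all tested transcripts. The lower values came mainly from number 1. There, 41 of 51 genes were lower in R-SDS 1 than in Control 1 (48% of all transcripts), with a median of -0.14. Within number 2, 26 of 51 were lower (47.1% of all transcripts), with a median of -0.0023. A gene that was lower within number 1 and higher within number 2 was found 21 times, which is 41.2% of the members and 25.2% of all transcripts. Lower within both numbers were 20 genes and higher within both were 4.

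The count of lower genes was smaller when R-SDS 1 was left out. R-SDS 1 was the lowest of the 4 arrays for 28 of the 51 genes, R-SDS 2 for 9, Control 1 for 7 and Control 2 for 7. Over all 21789 transcripts, R-SDS 1 was lowest for 5957, R-SDS 2 for 4281, Control 1 for 5129 and Control 2 for 6422. Without R-SDS 1, 23 of 51 genes had a lower value in R-SDS (49.4% of all transcripts) and the median was 0.02. Without R-SDS 2, 41 were lower (48% of all transcripts) and the median was -0.16. Leaving out 1 array also breaks the balance of the numbers, so level shifts between numbers 1 and 2 enter all values given without 1 array. The median shift (number 2 minus number 1, over both groups) was 0.11 for the 51 genes, against -0.00033 for all transcripts. Choroid plexus markers and the blood cell markers Alas2, S100a8 and S100a9 were high in the same array. The part of these and of the other cell type markers in the lower snoRNA values was not tested. Across the 51 genes the differences within numbers 1 and 2 did not run together (Pearson r = -0.14, a description over genes that share the same 4 arrays).

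**Figure D1:**
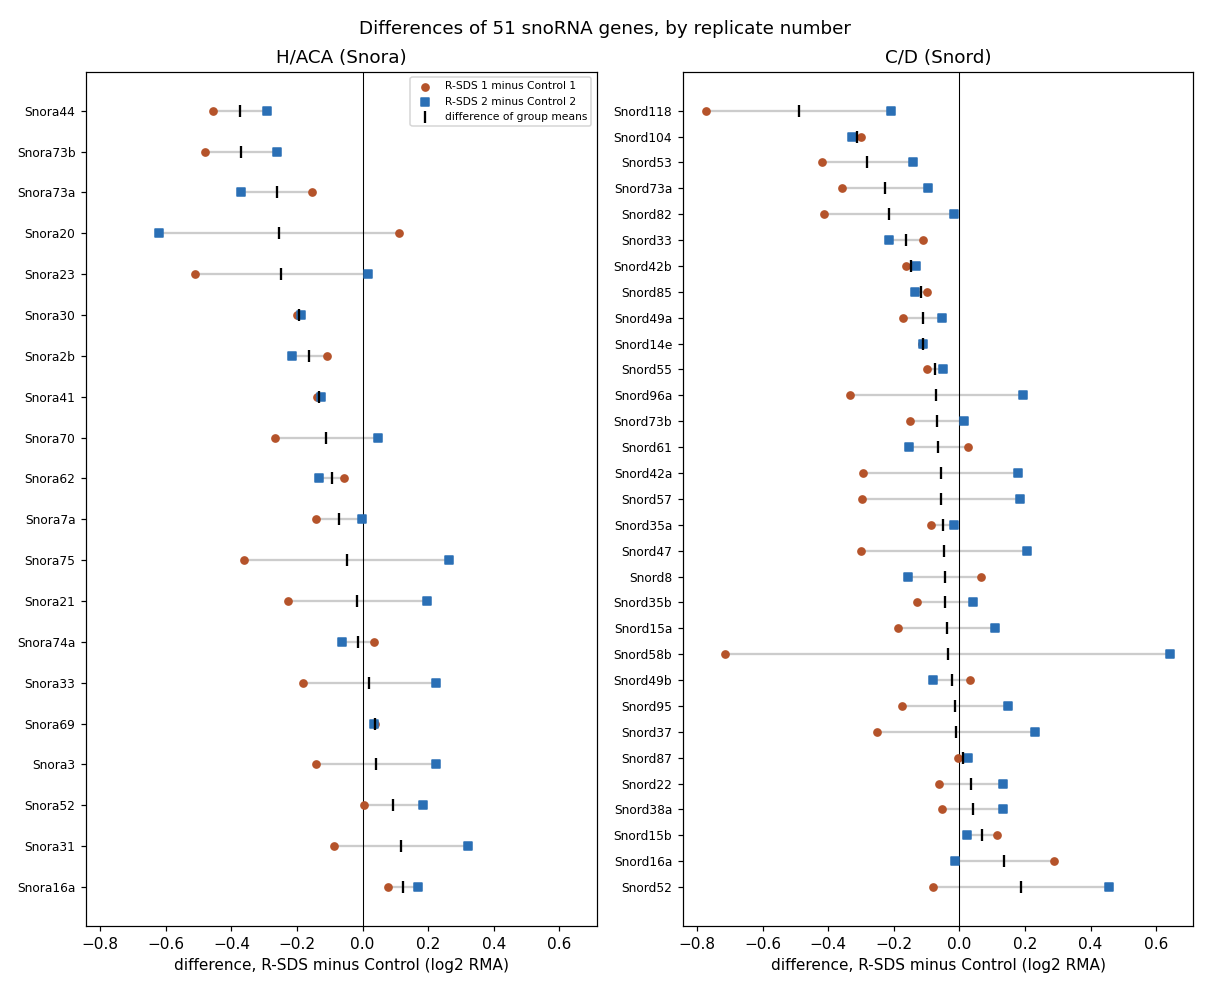
Log2 difference of R-SDS minus Control (horizontal axes) for each of 20 H/ACA and 31 C/D genes (rows), with a circle for number 1, a square for number 2 and a bar for the difference of the group means. The circles of 41 genes lie left of 0, against the squares of 26 genes.

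In limma, with p-values adjusted over all transcripts by the Benjamini-Hochberg method, 0 of 51 members passed a threshold of 0.05 (0% of all transcripts), and every member had an adjusted p of 1. At an unadjusted p under 0.05 limma counted 1 member, Snora73b (unadjusted p = 0.0385), where it counted 1.01% of all transcripts, and the methods' t-test counted 0 members. Past the study's own selection rule (log2 difference beyond 0.5 and unadjusted p under 0.05) there were 0 members higher (0.147% of all transcripts) and 0 lower (0.193%). Both R-SDS arrays lay below both Control arrays for 9 members, or 17.6%, against 9.06% of all transcripts, and above both for 0 members, against 9.41%. An exact permutation test of a single gene cannot go below p = 0.333 with 2 arrays against 2. None of the differences that follow passed limma's adjusted p.

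Among the snoRNAs of precursor cleavage, 4 of 5 had a lower mean in R-SDS, with a median of -0.26, beside 39 of all 51 members. The groups of 3 did not overlap (9.06% of all transcripts do not overlap in this direction), and 2 of these 3 are copies of 1 RNA. Snora73b, a copy of the H/ACA RNA U17 that acts in the maturation of 18S ribosomal RNA, measured 7.41 and 7.41 in the R-SDS arrays, against 7.89 and 7.67 in Control. Both R-SDS arrays were level with each other and lay below both Control arrays. Its means were 7.41 and 7.78 ± 0.15 (SD, n = 2), and the log2 difference was -0.37 (SE 0.14), with -0.48 within number 1 and -0.26 within number 2. Without R-SDS 1 the difference of Snora73b was -0.37 as well.

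Snora73a, the other U17 copy, measured 7.59 and 7.24 in the R-SDS arrays, against 7.74 and 7.61 in Control. Here R-SDS 2 was the lowest array, and the groups did not overlap. The difference was -0.26 (SE 0.17), with -0.15 within number 1 and -0.37 within number 2, and it was -0.09 without R-SDS 2. Both genes are 205 bases long in RefSeq and lie in Snhg3 on chromosome 4. They are close copies whose probes may share signal, so the pair is not a set of independent measurements.

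Snord118, the C/D RNA U8 that is needed for 5.8S and 28S ribosomal RNA and whose human gene is mutated in a leukoencephalopathy with cysts, showed the largest lower difference of the 51 genes. It measured 3.93 and 4.68 in the R-SDS arrays, against 4.71 and 4.89 in Control. R-SDS 1 was far below the other arrays, and R-SDS 2 was close to Control 1. The difference was -0.49 (SE 0.25), with -0.77 within number 1 and -0.21 within number 2, and it was -0.12 without R-SDS 1 and -0.86 without R-SDS 2. Snord118 was dim, with a level above only 18.3% of the tested transcripts, and it was the 1 member that no RefSeq gene spans.

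The remaining cleavage RNAs differed by less than their standard errors. Snord14e, a copy of U14 (required for 18S ribosomal RNA in yeast) within the chaperone gene Hspa8, measured 7.69 and 7.83 in the R-SDS arrays, against 7.80 and 7.94 in Control. The groups of Snord14e overlapped, and the difference was -0.11 within number 1 and -0.11 within number 2. Snord22 (U22, required for 18S ribosomal RNA in Xenopus) measured 9.98 and 10.38 in the R-SDS arrays, against 10.04 and 10.25 in Control. Its difference was 0.04 (SE 0.18) and its groups overlapped. U3, the most abundant RNA of this kind, is annotated here as Rnu3a and is no member. It measured 5.88 and 5.78 in the R-SDS arrays, against 5.84 and 5.97 in Control.

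The other genes without overlap were C/D guide RNAs. Snord82, in an intron of the nucleolin gene Ncl, measured 8.97 and 9.20 in the R-SDS arrays, against 9.38 and 9.22 in Control. R-SDS 2 lay just below Control 2 (-0.02), and the difference of -0.21 (SE 0.15) came mainly from number 1 (-0.41) and was -0.10 without R-SDS 1. Snord42b, within the ribosomal protein gene Rpl23a, measured 7.50 and 7.64 in the R-SDS arrays, against 7.67 and 7.77 in Control, a difference of -0.15 (SE 0.14) with close values within both numbers (-0.16 and -0.13). Snord49a measured 8.95 and 8.97 in the R-SDS arrays, against 9.12 and 9.03 in Control (difference -0.11). Snord55 measured 10.73 and 10.78 in R-SDS and 10.83 in both Control arrays (difference -0.07). The separation of Snord49a and Snord55 was narrower than the standard error of 0.13 for each.

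The snoRNAs of the ribosomal protein gene Rpl13a are known from hamster cells as mediators of death under lipid overload. Snord33 measured 10.51 and 10.59 in the R-SDS arrays, against 10.62 and 10.80 in Control, and its difference was -0.16 (SE 0.14), with -0.11 within number 1 and -0.21 within number 2. Snord35a, chosen for mention after its values were seen, measured 8.16 and 8.15 in the R-SDS arrays, against 8.25 and 8.17 in Control (difference -0.05). The Rpl13a snoRNAs Snord34 and Snord32a share their rows with the Rpl13a symbol and are no members. Snord34 had 8.61 and 8.52 in the R-SDS arrays, against 8.80 and 8.66 in Control, and Snord32a had 11.66 and 11.56 in the R-SDS arrays, against 11.70 and 11.65 in Control. All 4 rows that list an RNA of this host had a lower mean in R-SDS, and the groups of Snord32a overlapped. In the rows of Snord34 and Snord32a the snoRNA cannot be told apart from Rpl13a, which had no row of 1 symbol.

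**Figure D2:**
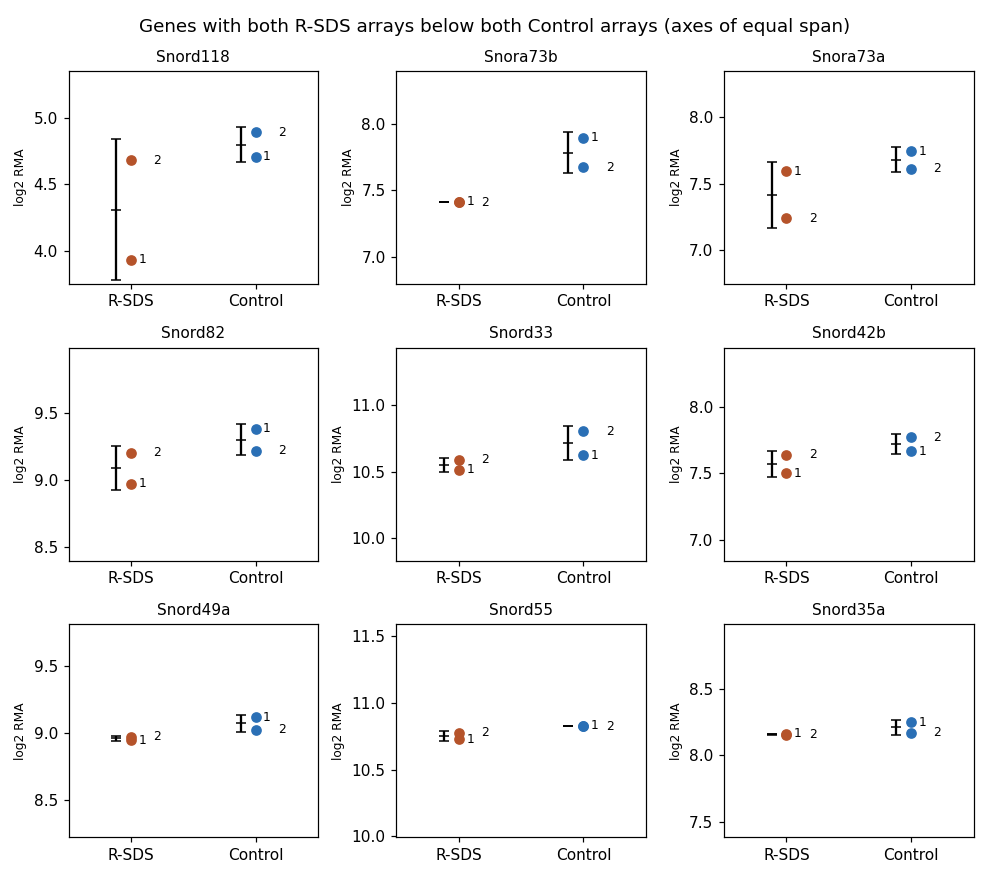
Log2 RMA level (vertical axes, all of equal span) of the 9 genes whose R-SDS arrays both lie below both Control arrays, with 1 point per array, the replicate number to its right, and to its left the group mean and SD (n = 2). Snord118 has the widest spread, with R-SDS 1 at 3.93, and Snora73b has both R-SDS arrays at 7.41.

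Several large differences came with overlapping groups. Snora44 (7.01 and 6.68 in the R-SDS arrays, against 7.47 and 6.98 in Control) and Snord104 (9.22 and 9.54 in the R-SDS arrays, against 9.52 and 9.87 in Control) were chosen for mention after their values were seen. Both were lower within each number, by differences of -0.46 and -0.29 for Snora44 and of -0.30 and -0.33 for Snord104. Snora23, within the importin gene Ipo7, measured 8.07 and 9.21 in the R-SDS arrays, against 8.58 and 9.20 in Control. Its difference of -0.25 (SE 0.39) lay within number 1 (-0.51) and not number 2 (0.02). Over both groups, number 2 exceeded number 1 by 0.88 for Snora23. Part of this shift enters the difference of 0.32 found without R-SDS 1.

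The numbers disagreed most for Snord58b, Snord118, Snora20 and Snora75. Snord58b measured 5.35 and 6.08 in the R-SDS arrays, against 6.06 and 5.44 in Control, so that its differences were -0.72 within number 1 and 0.64 within number 2. Snora20, in the chaperonin gene Tcp1, measured 4.69 and 4.40 in the R-SDS arrays, against 4.58 and 5.02 in Control, and went the other way, with 0.11 within number 1 and -0.62 within number 2. Snora75, in Ncl beside Snord82, measured 4.71 and 5.28 in the R-SDS arrays, against 5.07 and 5.01 in Control, with -0.36 and 0.26. The groups overlapped for these 3 genes, and their group differences (-0.04, -0.25 and -0.05) had standard errors of 0.30, 0.20 and 0.21.

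Genes with a higher mean in R-SDS were few and overlapped in every case. Snora16a measured 8.05 and 8.51 in the R-SDS arrays, against 7.97 and 8.34 in Control, with a difference of 0.12 (SE 0.21). Array 2 was the higher one in both groups. Snora52, in the ribosomal protein gene Rplp2, measured 7.83 and 8.03 in the R-SDS arrays, against 7.83 and 7.85 in Control. Snord52, the dimmest member, measured 3.51 and 3.74 in the R-SDS arrays, against 3.59 and 3.28 in Control, with a difference of 0.19 (SE 0.17) that came from number 2 (0.46).

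The H/ACA and C/D classes had similar group medians and differed in brightness. The median difference was -0.08 for H/ACA genes (14 of 20 lower) and -0.06 for C/D genes (25 of 31 lower). H/ACA genes had a median of -0.14 within number 1 and 0.01 within number 2, and C/D genes had -0.15 within number 1 and -0.01 within number 2. The median size of the difference, without its sign, was 0.11 for H/ACA and 0.07 for C/D genes, against 0.07 over all transcripts. The level of number 2 was also compared with that of number 1, averaged over both groups. The median size of this level shift was 0.23 for H/ACA and 0.11 for C/D genes, against 0.16 over all transcripts. These gaps between the classes were not seen among dim members. At or above the median level of tested transcripts the sizes of the R-SDS difference were 0.19 for H/ACA and 0.06 for C/D genes. Below that level they were 0.09 for both, and the level shifts between numbers were 0.22 for H/ACA and 0.25 for C/D genes. Without overlap and lower in R-SDS were 2 of 20 H/ACA genes (10%) and 7 of 31 C/D genes (22.6%), against 9.06% of all transcripts. Without R-SDS 1 the class medians were 0.09 for H/ACA and -0.04 for C/D genes. Part of the level shift between numbers enters these values, and its signed median was 0.21 for H/ACA and 0.05 for C/D genes. No test of the difference between the classes was made, since their genes share the same arrays.

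C/D genes were the brighter class. Their median level was 7.82 (3.53 to 11.42), against 6.37 (4.43 to 8.77) for H/ACA genes. The level of a row also depends on its probes, so this compares rows of the array and not amounts of RNA. Of 17 members above the upper quartile of the tested transcripts (8.04), 15 were C/D genes. Snord57, in an intron of Nop56 (itself a core protein of C/D particles), was the brightest, with 11.22 and 11.57 in the R-SDS arrays, against 11.52 and 11.39 in Control. Snord49b, which lies in the same host as Snord49a, measured 10.46 and 10.32 in the R-SDS arrays, against 10.43 and 10.40 in Control. In RefSeq the C/D members are 45 to 148 bases long (median 68) and the H/ACA members 61 to 205 (median 125).

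Dim members need care, since the table carries no detection call. Olfactory, vomeronasal and taste receptor genes, which most brain cells do not use, had a 90th percentile level of 4.81, and 8 members lay below it (5 C/D and 3 H/ACA), Snord118 among them. The dimmest H/ACA genes were Snora41 (4.13 and 4.60 in the R-SDS arrays, against 4.27 and 4.72 in Control) and Snora2b (4.39 and 4.53 in the R-SDS arrays, against 4.50 and 4.75 in Control). Snord85 measured 4.46 and 4.19 in the R-SDS arrays, against 4.56 and 4.32 in Control. Differences of these genes are near the lower end of the scale. Among the 30 members at or above the median level of 6.55, 23 were lower and the median difference was -0.06, with -0.19 over 9 H/ACA and -0.06 over 21 C/D genes. Among the 21 dimmer members 16 were lower, with a median of -0.05. Level and difference did not run together across the 51 genes (Pearson r = 0.06, Spearman rho = 0.04, a description).

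**Figure D3:**
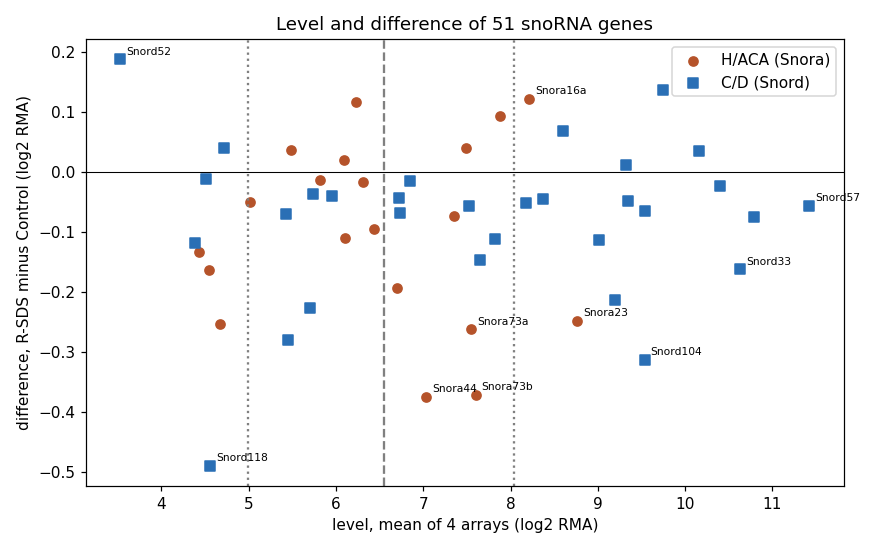
Log2 difference of R-SDS minus Control (vertical axis) against the mean level of the 4 arrays (horizontal axis, log2 RMA) for 20 H/ACA genes (circles) and 31 C/D genes (squares), with the quartiles of all tested transcripts as vertical lines (4.99, 6.55 and 8.04). Negative differences occur at every level, and 15 of the 17 genes right of the last line are C/D genes.

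The host genes lay close to 0 as a group. A RefSeq gene spans 50 of the 51 members, and 16 of the 43 spanning genes encode ribosomal proteins and hold 21 members, while 5 Snhg genes hold 7 members. For 29 members a spanning gene, called the host here without knowledge of its strand, had a row of its own (25 hosts). Snord87 was paired with Mcmdc2, because Snhg6, which also spans it, had no such row. The hosts had a median difference of 0.0032, and 11 of 25 had a lower mean in R-SDS. Of the 29 pairs, 13 had the same sign, 9 were lower in both and 13 had a lower snoRNA beside a higher host. The differences of host and snoRNA did not run together (Pearson r = 0.11, Spearman rho = 0.07, a description over pairs that share arrays and some hosts). Ncl measured 9.47 and 9.65 in the R-SDS arrays, against 9.58 and 9.52 in Control, with a difference of 0.02, beside -0.21 for Snord82 and -0.05 for Snora75. Rps3a1, which encodes a small-subunit protein, had 0.20, whereas its C/D RNAs Snord73a and Snord73b had -0.23 and -0.07. Gas5, a host transcript whose exons are non-coding, had -0.06 with no overlap, beside -0.05 for Snord47. Both R-SDS arrays lay below both Control arrays for 1 of the 25 hosts and above for 4, against 9.06% and 9.41% of all transcripts. Members of 1 host could differ as well, such as Snora16a (0.12) and Snora44 (-0.37) in Snhg12.

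**Figure D4:**
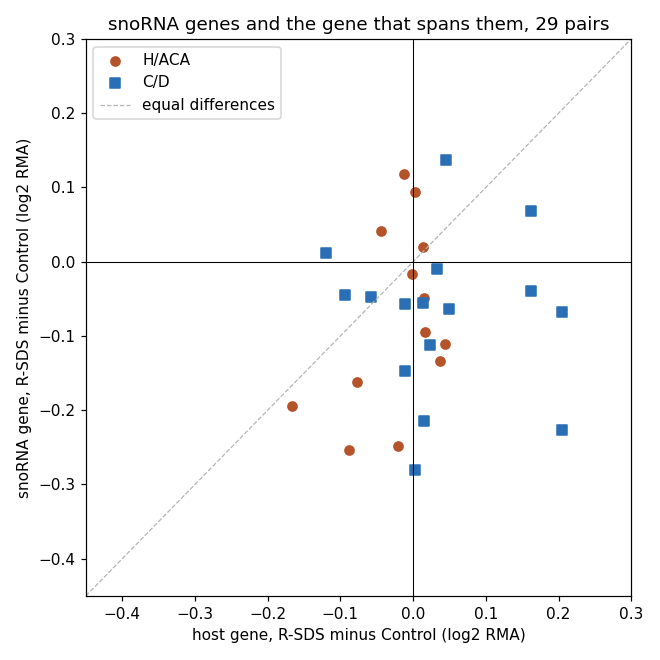
Log2 difference of R-SDS minus Control for snoRNA genes (vertical axis) and for the gene that spans them (horizontal axis), with 1 point per pair (29 pairs, circles H/ACA, squares C/D) and a dashed line of equal differences. In 13 pairs the snoRNA gene is below 0 and its host above 0.

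Genes of the snoRNA particles did not pass the test either. Of the 8 measured core proteins, 0 passed limma's adjusted p in either direction, 2 had a lower and 6 a higher mean, and the median difference was 0.01. Fbl measured 7.28 and 6.84 in the R-SDS arrays, against 6.85 and 6.92 in Control, a difference of 0.18 (SE 0.18) that lay in number 1 (0.43) and not number 2 (-0.08). Dkc1 measured 7.81 and 7.83 in the R-SDS arrays, against 7.73 and 7.59 in Control, and its arrays did not overlap (difference 0.16, SE 0.13). The remaining core proteins (Nop56, Nop58, Snu13, Nhp2, Nop10 and Gar1) differed by -0.03 to 0.06. Of 16 assembly and maturation factors, 0 passed, 6 were lower and 10 higher, with a median of 0.04. Ruvbl1, an ATPase of the assembly complex, was the 1 factor without overlap (0.10, higher in R-SDS). Dkc1 was likewise the 1 such core protein, where 9.41% of all transcripts have both R-SDS arrays above both Control arrays.

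Brain-enriched imprinted snoRNAs and their hosts were measured in part. No imprinted C/D gene had a row of 1 symbol. The 24 rows listed for Snord116l1, Snord116l2 and Gm26504 held 6 distinct sets of values, with differences of -0.19 to -0.12. The brightest measured 11.54 and 11.91 in the R-SDS arrays, against 11.86 and 11.91 in Control, so that its difference of -0.16 lay within number 1 (-0.32) and was -0.0024 within number 2. Rian and Meg3, non-coding transcripts of the Dlk1-Dio3 region (Rian holds C/D snoRNAs), differed by -0.34 (SE 0.56) and -0.15 (SE 0.31). Rian measured 7.23 and 8.64 in the R-SDS arrays, against 7.63 and 8.92 in Control, so that the numbers differed more than the groups.

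Rows that list a snoRNA together with other symbols were also lower more often within number 1 than within number 2. They form 15 symbol sets, of which 10 were lower and 5 higher in R-SDS, with a median of -0.07, and 13 were lower within number 1 and 8 within number 2. Both R-SDS arrays lay below both Control arrays for 3 sets (those of Snora19, Snord14a and Snord34) and above both for 1 (that of Snord7), against 9.06% and 9.41% of all transcripts. Snora34 shares its row with Mir1291, whose hairpin overlaps the Snora34 gene by 73 bases. That row measured 6.78 and 7.57 in the R-SDS arrays, against 7.26 and 7.70 in Control (difference -0.30, SE 0.29), and the groups overlapped. The hairpin is shown because it carries both annotations (RefSeq, GRCm38.p6, chr15:98519762-98519878, minus, with the mature miRNA in capitals).
Mir1291: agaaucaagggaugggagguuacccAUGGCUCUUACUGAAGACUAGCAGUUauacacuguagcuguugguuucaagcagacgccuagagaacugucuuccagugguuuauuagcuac

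Other small RNAs give a comparison by size class. Of 300 microRNA genes, 199 (66.3%) had a lower mean in R-SDS, against 47.1% of all transcripts, with a median of -0.05. In contrast to the snoRNAs, their medians were close within both numbers (-0.06 and -0.04), a difference that was not tested. As for 28 of the 51 snoRNA genes, R-SDS 1 was the lowest array for 160 of the 300 microRNA genes. The microRNA rows were dimmer, with a median level of 4.89. The 3 small Cajal body RNAs, which guide changes of spliceosomal RNA, differed by -0.08 to -0.03 and overlapped. Among 12 further small RNA genes 6 were lower and 6 higher, and 4 did not overlap and were lower (9.06% of all transcripts). The largest of these differences exceeded that of any snoRNA gene. The spliceosomal RNA gene Rnu5g measured 2.44 and 3.08 in the R-SDS arrays, against 3.67 and 3.56 in Control (difference -0.85, SE 0.23), and was the 1 gene of the 12 past the study's selection rule. Rnu7, the RNA of histone message processing, measured 3.49 and 4.66 in the R-SDS arrays, against 4.76 and 4.93 in Control (difference -0.77, SE 0.36). Both were dim. The abundant Rn7sk, which restrains transcription elongation, measured 13.42 and 13.48 in the R-SDS arrays, against 13.51 and 13.51 in Control.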

How the data were processed

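The authors normalised the arrays by RMA and exported log2 values from Affymetrix Expression Console, per the labels. No genome build is given in the sources used here, and they name different labelling kits. Total RNA was purified on RNeasy columns after TRI Reagent. The members are 45 to 205 bases long in RefSeq (median 91). How much RNA of this size the columns kept, and whether this varied between samples, was not tested. The same holds for the microRNAs and the other small RNAs. Of 35556 rows, 21789 had 1 symbol in the platform annotation, 1621 had several and 12146 were not listed. Symbols were checked through Entrez identifiers against RefSeq (GRCm38.p6; 99.6% matched, 0 changed).

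Groups and replicate numbers came from the sample titles, which do not say that the mice are independent. The study's methods state that 2 mice were analysed for R-SDS. The p-values reflect only how far these samples spread. limma 3.58.1 (lmFit, eBayes; R 4.3.3) compared R-SDS with Control on all 4 arrays without a filter, two-sided, with Benjamini-Hochberg adjustment over the 21789 transcripts. Standard errors are limma's, with 2 residual and 4.07 prior degrees of freedom. Genes with several rows (5 of 51) were represented by the brightest. Hosts are RefSeq genes that span a member, found without strand because the table gives none. Of 3 members spanned by 2 genes, each measured host was taken.

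Named were members past the thresholds of the study, those without overlap and with 1 sign in both numbers (up to 6 per class and direction), the 4 brightest and 2 dimmest per class, the 2 per class whose numbers differ most, the cleavage RNAs, and hosts and core proteins. Others were named after their values were seen. The members, the lists and the tests were chosen with earlier results of these data known. The procedure was tested on simulated data. Precision is limited by the number of arrays. Alternatives were the replicate block, further quantile normalization, centring, only bright transcripts, the mean of a gene's rows, rows with several symbols, an intensity trend, the methods' t-test and leaving out each array. Figures were drawn with matplotlib 3.10.9.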

Additional observations from a re-analysis of the deposited data

Results flagged for a closer look

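Snord7 shares a row with AI450353 and was therefore no member. This row lay outside the main comparison and had both R-SDS arrays above both Control arrays (5.30 and 5.41 in the R-SDS arrays, against 5.14 and 5.21 in Control), with a log2 difference of 0.18 (SE 0.13; limma adjusted p = 1 over all transcripts). It was the 1 of 15 symbol sets holding a snoRNA with this pattern, where 9.41% of all tested transcripts have it, and 3 of the 15 sets had the opposite pattern (9.06%).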

How the results depend on the processing

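The count of snoRNA genes past the adjusted p was 0 under every alternative run, as was that of genes higher past the thresholds of the study. With 0 of 21789 transcripts past the adjusted p in the comparison itself (smallest 0.264), these counts say nothing about stability. Past these thresholds and lower in R-SDS there were 0 to 3 genes when 1 array was left out: 1 without R-SDS 1, 3 without R-SDS 2, 1 without Control 2 and 0 without Control 1. In these fits the group with 1 array is assumed to vary like the other group. Without 1 array the median difference ranged from -0.16 to 0.0207 over all snoRNA genes, from -0.19 to 0.0905 over H/ACA and from -0.16 to -0.0137 over C/D genes, and with only bright transcripts the H/ACA median was -0.19. Of the 22 named members, 10 changed sign when 1 array was left out; for named members without overlap this could not happen. The sign turned, with ranges of -0.82 to 0.32 for Snora23, -0.37 to 0.10 for Snora41, -0.33 to 0.23 for Snora75, -0.23 to 0.12 for Snord57, -0.40 to 0.33 for Snord58b, -0.11 to 0.35 for Snora16a, -0.0051 to 0.19 for Snora52, -0.16 to 0.24 for Snord22, -0.10 to 0.0499 for Snord49b and -0.25 to 0.0186 for Snord85. Further quantile normalization turned Snord58b (0.0146); the cause was not tested. The count of lower members was 36 after quantile normalization and 35 after centring (within number 1, 41 and 40; within number 2, 28 and 25), chosen after seeing the data.

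With the replicate number as a replicate block, limma again passed 0 members (smallest adjusted p 0.960). At an unadjusted p under 0.05 it counted 4 members lower and 0 higher, and 1047 of 21789 transcripts. Same-number arrays deviated together from their group means (correlation 0.52 over all transcripts, 0.50 over members), but 2 pairs do not show that the numbers pair the mice. Without R-SDS 2, where the spread comes from the Control arrays alone, 49 transcripts passed the adjusted p, with 0 members among them.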
